A study of Mus musculus with 4 samples.

Results

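The genes described here are 10 genes through which the intercalated cells of the collecting duct move acid, base and ammonia: Atp6v1b1, Atp6v1g3, Slc4a1, Slc4a9, Slc26a4, Foxi1, Car2, Car4, Rhbg and Rhcg. They were taken by name from the array files, all probes included. All 10 were found, with 11 probes, among 24638 gene entries measured above background on at least 1 array. All 11 probes were well above background on all 4 arrays, so no member was lost to the filter on dim probes. Most of the 10 are markers of intercalated cells in kidney, but Car2 and Car4 are also made elsewhere in the nephron and in other tissues, and Slc4a1 is also a red cell gene.

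The samples were kidneys of ICR mice, an outbred stock, with no genetic change named in the labels. Mice were injected with saline or with vancomycin, a glycopeptide antibiotic, either at ZT2, early in the light phase, or at ZT14, early in the dark phase (zeitgeber time, hours after lights on). All kidneys were collected 1 day after injection. Each of the 4 groups (saline ZT2, vancomycin ZT2, saline ZT14, vancomycin ZT14) was 1 array, and the labels do not say whether its RNA came from 1 mouse or from a pool, nor do they give age, sex or dose. Kidney markers were present on all 4 arrays, with 10 of 10 proximal tubule, 7 of 7 thick ascending limb and 5 of 5 distal convoluted tubule genes above background. The series compares vancomycin with saline at each time, and its labels allow the injection times to be compared within each treatment.

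Intercalated cells are scattered through the connecting tubule and collecting duct. Type A cells secrete protons into the urine through an apical V-ATPase and return bicarbonate to blood through the anion exchanger AE1. Type B cells do the reverse, secreting bicarbonate through the apical exchanger pendrin, with AE4 on their basolateral side. The transcription factor FOXI1 is required for intercalated cells to form and express these genes. Carbonic anhydrases supply protons and bicarbonate from carbon dioxide, and the Rh glycoproteins carry ammonia, which buffers the secreted acid.

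Sequences are shown for the probe whose value stood apart from the other members and for the promoters of 4 members that the results turn on. The Atp6v1b1 probe maps to chr6:83706880-83707858 (mm9, coordinates of the array files). These are 979 bases for a probe of 60 bases, so its genomic match is split. It reads
Atp6v1b1 probe: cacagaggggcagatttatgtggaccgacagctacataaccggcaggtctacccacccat

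Promoters, here the 250 bases before the transcription start, were present for 6 of the 10 genes in a RefSeq table of GRCm38.p6. They are given 5′ to 3′ on the gene's strand, with capitals marking a match to the forkhead core TGTTTAC, a motif of the family to which FOXI1 belongs. Atp6v1b1 (chr6:83742767-83743016, plus strand) is shown because it was the one member past 2-fold. Foxi1 (chr11:34208090-34208339, minus strand), Rhcg (chr7:79617658-79617907, minus strand) and Slc26a4 (chr12:31559985-31560234, minus strand) are shown because their levels were lower at ZT14 than at ZT2 in both treatments.
Atp6v1b1 promoter: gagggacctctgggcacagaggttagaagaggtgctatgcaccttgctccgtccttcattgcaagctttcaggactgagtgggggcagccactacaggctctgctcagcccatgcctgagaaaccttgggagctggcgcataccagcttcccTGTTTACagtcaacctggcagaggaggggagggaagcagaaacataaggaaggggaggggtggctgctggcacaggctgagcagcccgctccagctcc
Foxi1 promoter: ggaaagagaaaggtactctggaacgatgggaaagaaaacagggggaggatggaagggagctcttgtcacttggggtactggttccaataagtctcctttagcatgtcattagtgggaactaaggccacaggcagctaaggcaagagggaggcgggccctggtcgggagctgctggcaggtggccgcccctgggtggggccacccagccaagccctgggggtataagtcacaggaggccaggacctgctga
Rhcg promoter: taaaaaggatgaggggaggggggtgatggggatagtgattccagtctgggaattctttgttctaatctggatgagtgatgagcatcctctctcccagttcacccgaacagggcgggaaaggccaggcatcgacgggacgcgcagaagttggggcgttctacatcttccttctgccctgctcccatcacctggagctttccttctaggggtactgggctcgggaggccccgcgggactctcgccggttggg
Slc26a4 promoter: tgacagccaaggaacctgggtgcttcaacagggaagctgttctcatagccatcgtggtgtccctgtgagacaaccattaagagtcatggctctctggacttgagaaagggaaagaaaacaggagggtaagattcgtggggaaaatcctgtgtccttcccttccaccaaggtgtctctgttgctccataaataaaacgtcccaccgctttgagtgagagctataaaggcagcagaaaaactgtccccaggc

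The match in Atp6v1b1 lies 98 to 92 bases before the start. Searched on both strands, TGTTTAC was present in 1 of the 6 members' promoters and in 3.17% of 32851 promoters of this length. With the variants TATTTAC and TGTTTGC added, it was still 1 of 6, beside 9.73% of all promoters. The clock motifs CACGTG (the E-box) and TTATGTAA or TTACGTAA (the D-box) were in 0 of the 6, beside 6.02% and 0.931% of all promoters. These are letter matches and do not show binding.

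The genes were measured above background in every kidney sample, and 9 of the 10 kept within 2-fold between groups. Atp6v1b1, the V-ATPase subunit of intercalated cells, was the exception: its signal was higher on the saline ZT14 array than on the other 3. Slightly higher with vancomycin at both times were 4 of 10 (Atp6v1g3, Slc4a1, Foxi1 and Rhcg), beside 29.9% of all genes. Slightly lower at ZT14 in both treatments were 4 of 10 (Slc4a1, Slc26a4, Foxi1 and Rhcg), beside 35.3%. None of these differences has a replicate of its own. Levels below are log2 processed signals less the 75th percentile of their array, so that 0 is the brightness of that percentile. Different probes bind with different strength, so levels are compared between arrays and never between genes. A difference of 1 is 2-fold, which was the size rule used at a single time or within a treatment, where 1 array per group allows no test.

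With vancomycin at ZT2, 0 of the 10 genes were 2-fold or more higher and 0 lower, beside 1.4% and 3.1% of all genes measured on both arrays. At ZT14, 1 of 10 was 2-fold lower and 0 were higher with vancomycin, beside 2.34% and 1.21% of all genes. Between injection times, 1 of 10 was 2-fold higher at ZT14 and 0 lower in saline, beside 7.3% and 3.05% of all genes. In vancomycin the counts were 0 and 0, beside 8.36% higher and 2.8% lower. The single gene in each of the 2 counts of 1 is Atp6v1b1, and both counts use the same saline ZT14 array. The median distance between the highest and lowest of the 4 arrays was 0.52 for the members and 0.59 for all genes above background on 4 arrays.

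**Figure D1:**
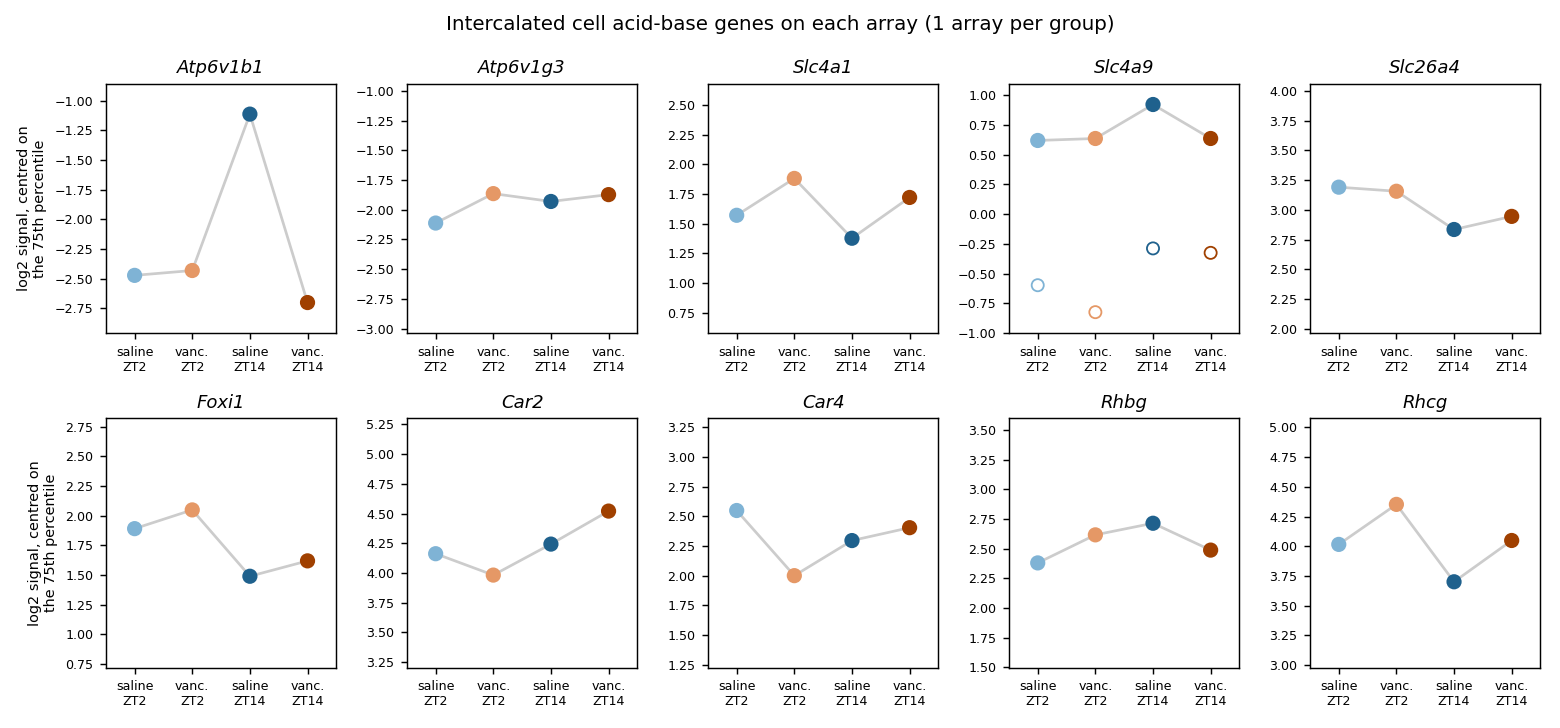
Level of each of the 10 genes on the 4 arrays (y axis, log2 processed signal less the array's 75th percentile), 1 array per group, with lines only to guide the eye. Atp6v1b1 is near -2.5 on 3 arrays and -1.11 on the saline ZT14 array, while the other genes move by less than 1.

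The V-ATPase subunits come first. Atp6v1b1 encodes the B1 subunit of the cytosolic V1 sector, the isoform of intercalated cells and inner ear, and its loss in humans causes distal renal tubular acidosis. Its level was -2.47 in saline ZT2, -2.43 in vancomycin ZT2, -1.11 in saline ZT14 and -2.70 in vancomycin ZT14. The saline ZT14 array alone was high, and the other 3 lay within 0.27 of each other. Vancomycin minus saline was 0.04 at ZT2 and -1.59 at ZT14. ZT14 minus ZT2 was 1.36 in saline, 2.56-fold, and -0.27 in vancomycin. The pattern of being 2-fold or more higher in saline ZT14 than both in saline ZT2 and in vancomycin ZT14 was written down after the values of Atp6v1b1 were seen, so that it holds for this gene by choice, and it was met by 0.472% of the 20759 genes above background on all arrays.

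Atp6v1b1 is read by a single spot. Its processed signal was 98.7, 91.0, 313 and 100 in the order of groups above, and the scanner software's own error of each was at most 10.4% of the signal. The raw mean brightness was 163, 156, 387 and 163, against local backgrounds of 54 to 57. The spot covered 44 to 47 pixels and carried no flag for an uneven or outlying spot on any array. The difference is thus larger than the software's error, but no second probe or animal reads it. With another background correction (normexp) it was 0.97 between times in saline, under 2-fold, and -1.17 with vancomycin at ZT14.

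Likeness to the pattern of Atp6v1b1 over the 4 arrays was ranked for 20758 genes, each centred on its own mean. Entries without an ordinary gene symbol, such as clone, accession or predicted gene names, were then left out. The 5 most alike of the rest were Tatdn2, Serpina1e, Serpina1b, Pigt and Stc2, with root mean square differences of 0.0713 to 0.113. All 5 were high on the saline ZT14 array alone, which follows from how they were chosen. Tatdn2 stood at 0.27 there and at -0.97, -0.88 and -1.14 in saline ZT2, vancomycin ZT2 and vancomycin ZT14. Pigt, a subunit of the enzyme that attaches GPI anchors, stood at 1.54 there and at 0.39, 0.47 and 0.24 on the others. Serpina1b and Serpina1e are close paralogs of alpha-1-antitrypsin whose probes may share signal. Likeness was measured over 4 arrays only and is a description.

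Atp6v1g3 encodes the G3 subunit of the V1 stalk, a form largely limited to kidney. Its level was -2.11 in saline ZT2, -1.86 in vancomycin ZT2, -1.93 in saline ZT14 and -1.87 in vancomycin ZT14. The saline ZT2 array was the lowest and the other 3 were within 0.07 of each other. The vancomycin difference was 0.25 at ZT2 and 0.06 at ZT14, so the saline ZT14 array did not stand apart for the other V1 subunit in the set.

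The remaining V-ATPase subunits were taken as a list of 23 genes, all measured. With vancomycin, 0 of the 22 measured on both ZT2 arrays and 0 of the 23 at ZT14 were 2-fold apart. Their median difference was -0.02 at ZT2 and -0.10 at ZT14, where the median of all genes was 0.02. By any amount, 13 of 22 were lower and 9 higher with vancomycin at ZT2, where 50.7% of all genes were higher. In the ZT14 pair, 19 of 23 were lower and 4 higher with vancomycin, where 52.3% of all genes were higher. At both times, 12 of 22 were lower with vancomycin and 2 higher, beside 27.3% and 29.9% of all genes. Between times the median was -0.04 in saline and -0.04 in vancomycin. Atp6v1g1, the widely expressed G subunit, had the largest difference at ZT2, 0.47, and in saline between times, 0.69. Atp6v0e2, of the membrane sector, was lower with vancomycin at ZT14 by a difference of -0.87, and in vancomycin it was -1.11 at ZT14 against ZT2, the one difference past 2-fold in the list. Atp6v0a4, the membrane-sector subunit of intercalated cells whose loss also causes distal renal tubular acidosis, was chosen for that role after its values were seen. It stood at 0.16 and -0.16 for vancomycin minus saline at ZT2 and ZT14, and for ZT14 minus ZT2 at 0.48 in saline and 0.16 in vancomycin.

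The bicarbonate exchangers differed little. Slc4a1, which encodes AE1, was at 1.57 in saline ZT2, 1.88 in vancomycin ZT2, 1.38 in saline ZT14 and 1.72 in vancomycin ZT14. Both vancomycin arrays were above both saline arrays, and at each treatment ZT14 was below ZT2. Vancomycin minus saline was 0.31 at ZT2 and 0.34 at ZT14, and ZT14 minus ZT2 was -0.19 in saline and -0.16 in vancomycin. In the limma fit over both times, with 2 arrays per treatment, the vancomycin difference was 0.33 ± 0.14 (SE), adjusted p = 0.642. This SE, like those below, draws on all genes and on the disagreement between times, and is no spread between animals.

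Slc4a1 is also the band 3 protein of red cells, so the erythroid genes are set beside it. Of 18 erythroid genes listed, 12 were measured, 5 more were on the array but not above background, and 1 was not on the array. Their mean level was -1.59, -2.67, -1.09 and -1.20 in saline ZT2, vancomycin ZT2, saline ZT14 and vancomycin ZT14. Only 8 of these 12 were above background on all 4 arrays, so the means include dim values. At ZT2, 6 of the 8 measured on both arrays were 2-fold or more lower with vancomycin, beside 3.1% of all genes. Klf1 alone was 2-fold or more higher, beside 1.4%, and the median of the 8 was -1.97. Slc4a1 was higher at ZT2 by 0.31, the opposite sign to that median. At ZT14 the erythroid median was 0.13. The part of blood cells in the Slc4a1 signal was not tested.

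**Figure D2:**
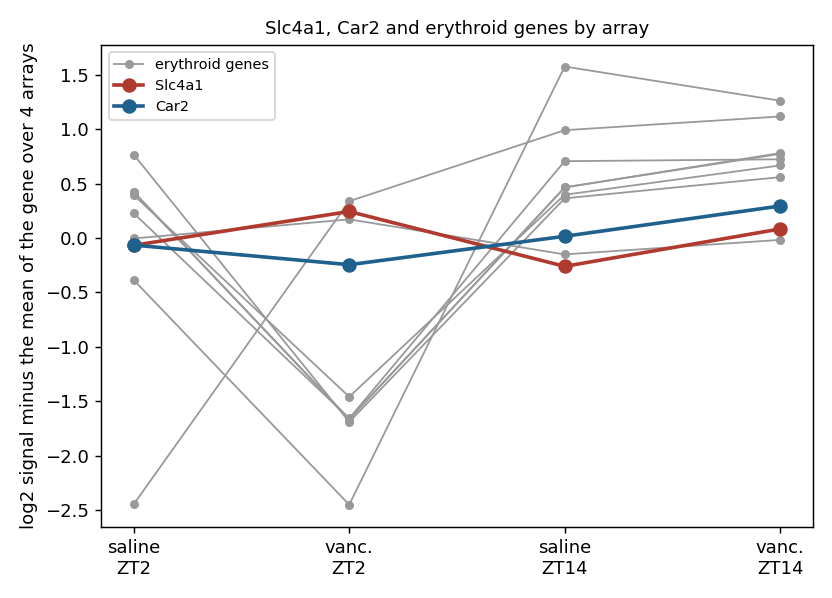
Slc4a1 and Car2, both also expressed in red cells, beside the erythroid genes measured on all 4 arrays (y axis, log2 level less the gene's own mean over the arrays, against the 4 groups of 1 array each). Of the 8 erythroid genes, 6 are lowest on the vancomycin ZT2 array, where Slc4a1 is at its highest, 1.88, and Car2 at its lowest, 3.98.

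Slc4a9, which encodes AE4 of the basolateral side of type B cells, had 2 probes. The brighter read 0.62 in saline ZT2, 0.64 in vancomycin ZT2, 0.92 in saline ZT14 and 0.64 in vancomycin ZT14, so that only the saline ZT14 array was high. The other read -0.60, -0.83, -0.29 and -0.33 in the same order. Both probes were higher at ZT14 in saline, by 0.30 and 0.31. They differed in the vancomycin difference at ZT2, 0.02 against -0.23, and at ZT14, -0.29 against -0.04. In vancomycin, ZT14 minus ZT2 was 0.50 on the second probe, whereas the brighter probe was equal to 2 decimals. The -0.04 and the 0.02 are smaller in size than the median SD between repeated spots, 0.041 to 0.049 log2 units. Their signs are therefore not read as agreement or disagreement of the probes.

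Slc26a4 encodes pendrin, the apical chloride-bicarbonate exchanger of type B cells. It was at 3.19 in saline ZT2, 3.16 in vancomycin ZT2, 2.83 in saline ZT14 and 2.94 in vancomycin ZT14. Both ZT14 arrays were below both ZT2 arrays, and the treatments hardly parted. ZT14 minus ZT2 was -0.36 in saline and -0.21 in vancomycin, against vancomycin differences of -0.03 and 0.11. The vancomycin difference at ZT2, -0.03, changed sign when arrays were centred on their median.

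Foxi1, the transcription factor, was at 1.89 in saline ZT2, 2.05 in vancomycin ZT2, 1.49 in saline ZT14 and 1.62 in vancomycin ZT14. Both ZT14 arrays were again below both ZT2 arrays, by -0.40 in saline and -0.43 in vancomycin. In the limma fit, with 2 arrays per time, ZT14 minus ZT2 was -0.41 ± 0.14 (SE), adjusted p = 0.197, the smallest adjusted p of the members for time. The vancomycin difference of Foxi1 was 0.16 at ZT2 and 0.13 at ZT14.

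The carbonic anhydrases moved in different directions at the 2 times. Car2, the cytosolic enzyme of intercalated cells, proximal tubule and red cells, was at 4.16 in saline ZT2, 3.98 in vancomycin ZT2, 4.24 in saline ZT14 and 4.52 in vancomycin ZT14. The vancomycin arrays were the lowest and the highest of the 4. Car2 differed with vancomycin by -0.18 at ZT2 and 0.28 at ZT14. ZT14 minus ZT2 was 0.54 in vancomycin and 0.08 in saline, the latter turning to -0.011 with normexp and -0.027 with median centring.

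Car4, the GPI-anchored enzyme on the surface of tubule cells and of some endothelium, was at 2.55 in saline ZT2, 2.00 in vancomycin ZT2, 2.29 in saline ZT14 and 2.40 in vancomycin ZT14. The vancomycin ZT2 array was the low one. It differed with vancomycin by -0.55 at ZT2 and 0.11 at ZT14. Set beside it, 12 of 12 endothelial genes were lower with vancomycin at ZT2, with a median of -0.35. At ZT14 the same list was again lower in 12 of 12, with a median of -0.32, while Car4 was 0.11 higher. Of all genes, 50.7% were higher with vancomycin at ZT2 and 52.3% at ZT14, and 27.3% were lower at both times. A part of endothelial cells in the Car4 signal was not tested.

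The other carbonic anhydrases were a list of 14 genes, and 12 of them passed background on every array. With vancomycin at ZT2, 1 of 12 was 2-fold lower and 0 higher, beside 3.1% and 1.4% of all genes. At ZT14, 2 were higher and 2 lower, beside 1.21% and 2.34%. Car3, an enzyme of muscle and fat, was at 3.45 in saline ZT2, 1.83 in vancomycin ZT2, 0.77 in saline ZT14 and 2.71 in vancomycin ZT14. The difference with vancomycin was thus -1.62 at ZT2 and 1.94 at ZT14. The 10 fat cell genes had mean levels of -0.21, -0.50, -3.68 and -3.58 in the same order. Only 6 of them were above background on all 4 arrays, and 3 were above it on neither ZT14 array. With vancomycin at ZT2, 5 of the 9 measured on both arrays were 2-fold lower and 1 higher, beside 3.1% and 1.4% of all genes. Their median difference with vancomycin was -1.23 at ZT2 and 0.05 at ZT14. The part of fat cells in the Car3 signal was not tested. Car13, a cytosolic enzyme, had a difference of -1.49 with vancomycin at ZT14 and of -1.50 between ZT14 and ZT2 in vancomycin. Car8 and Car9 completed the ZT14 count, with -1.70 and 1.15. In saline, 3 of 12 were 2-fold higher at ZT14 and 1 lower, beside 7.3% and 3.05% of all genes. The lower one was Car3, with -2.68, and the higher ones were Car7, Car8 and Car14, with 1.09 for Car7 and 1.54 for Car8. Car7, Car8, Car9 and Car14 are named because they make up these counts, chosen after their values were seen.

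The Rh glycoproteins parted. Rhcg, the ammonia channel of the apical and basolateral membrane, was at 4.02 in saline ZT2, 4.35 in vancomycin ZT2, 3.70 in saline ZT14 and 4.05 in vancomycin ZT14. At each time the vancomycin array was above the saline array, and in each treatment ZT14 was below ZT2. Vancomycin minus saline was 0.34 at ZT2 and 0.35 at ZT14, and ZT14 minus ZT2 was -0.31 in saline and -0.30 in vancomycin. In the limma fit with 2 arrays per treatment, from different injection times, Rhcg was 0.34 ± 0.14 (SE) higher with vancomycin, adjusted p = 0.636. That was the smallest adjusted p of the members for treatment, and its SE is no spread between animals.

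Rhbg, the basolateral ammonia transporter, was at 2.38 in saline ZT2, 2.62 in vancomycin ZT2, 2.71 in saline ZT14 and 2.49 in vancomycin ZT14. The saline arrays were the lowest and the highest. Vancomycin minus saline was 0.24 at ZT2 and -0.23 at ZT14, and over both times it was 0.01 ± 0.19 (SE) in the limma fit, adjusted p = 0.997.

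**Figure D3:**
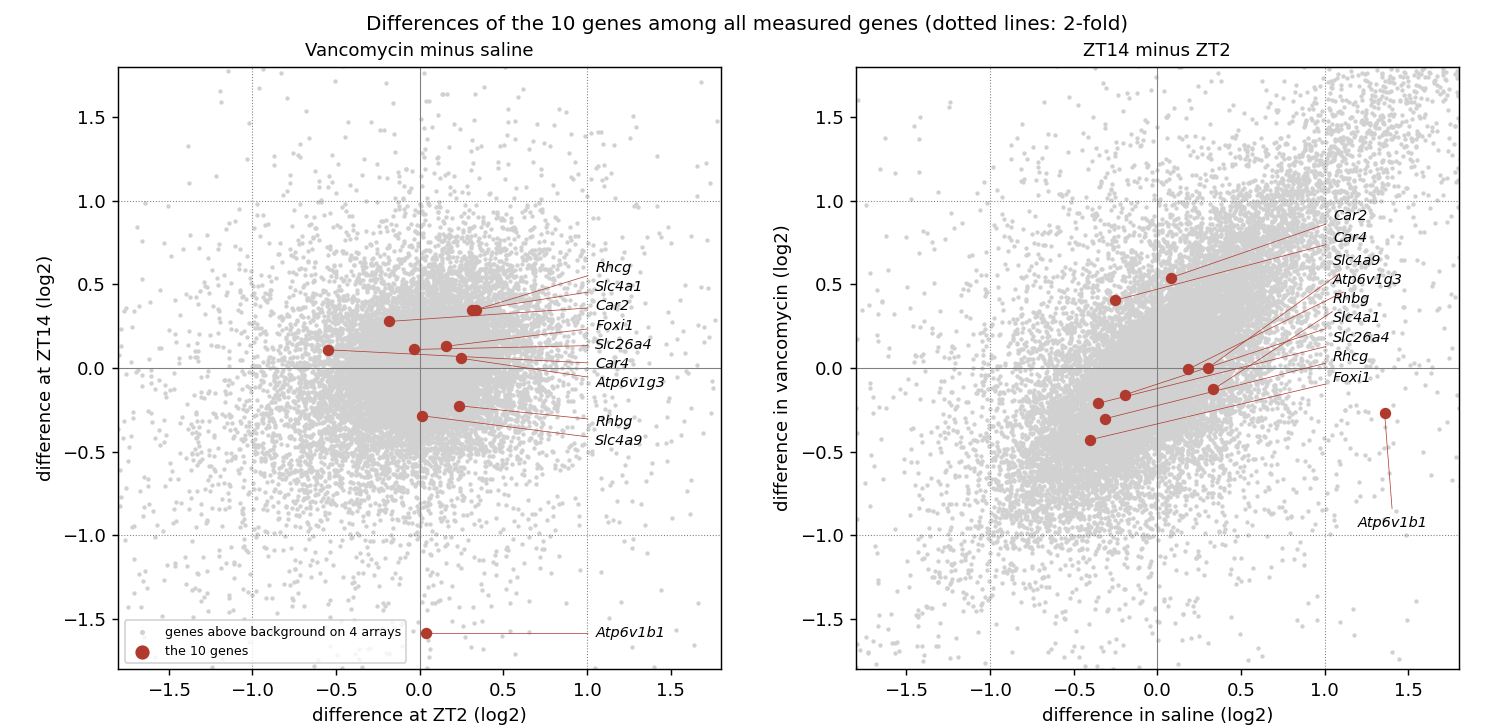
Differences of the 10 genes (red) among genes above background on all 4 arrays (grey), log2 units. Left, vancomycin minus saline at ZT2 (x) and ZT14 (y), and right, ZT14 minus ZT2 in saline (x) and vancomycin (y), with axes ending at 1.8 either side of 0 and dotted lines at 2-fold. Rhcg and Slc4a1 lie together at 0.34 and 0.35 and at 0.31 and 0.34 on the left, and Atp6v1b1 alone lies beyond 2-fold.

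With vancomycin, 7 of the 10 genes were higher by any amount at ZT2 and 7 at ZT14, beside 50.7% and 52.3% of all genes. At ZT14 against ZT2, 5 were higher in saline and 3 in vancomycin, beside 52.1% and 51.9%. Across the set, 4 of 10 genes were higher with vancomycin at both times (Atp6v1g3, Slc4a1, Foxi1 and Rhcg), beside 29.9% of all genes, and 0 were lower at both times, beside 27.3%. Between times, 4 were lower at ZT14 in both treatments (Slc4a1, Slc26a4, Foxi1 and Rhcg), beside 35.3% of all genes. The 2 that were higher in both, beside 39.4%, were Slc4a9 and Car2. In vancomycin, where Slc4a9 is among the 3 higher, its difference was 0 to 2 decimals. It turned negative with median centring, quantile normalization and the authors' deposited table, and was 0.25 as the mean over its probes. The saline difference of Car2, 0.08, turned negative with normexp and with median centring. Median centring moved the median of all genes between times by -0.11 in saline and -0.12 in vancomycin. It left the 4 genes lower at ZT14 and the 4 higher with vancomycin on the same side. The median difference of the members was 0.10 with vancomycin at ZT2 and 0.11 at ZT14, where all genes had 0.00 and 0.02. Between times it was -0.06 in saline and -0.14 in vancomycin, where all genes had 0.02 and 0.03. The typical size of difference, without sign, was 0.208, 0.252, 0.309 and 0.241 for the members and 0.196, 0.178, 0.331 and 0.348 for all genes in these 4 comparisons.

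The limma fit of treatment and injection time called 0 of the 10 genes for either term, and 0 of 24638 genes, which is 0% in each direction. At an unadjusted p under 0.05, 0 members passed for either term. All genes gave 790 higher and 1317 lower with vancomycin (3.21% and 5.35%), and 4426 higher and 2284 lower at ZT14 (18% and 9.27%). The fit has 1 residual degree of freedom, which measures how far the treatment difference disagreed between times and not the spread between animals. One slide held both ZT2 samples and the other both ZT14 samples, which means that the time of injection and the slide cannot be told apart. Saline lay in position 1.1 of each slide and vancomycin in 1.2, which ties position to treatment in the same way. In whole kidney, fewer intercalated cells and less RNA per cell cannot be told apart either.

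Other genes of intercalated cells were a list of 20, and 18 of them passed background on every array. With vancomycin, 7 of the 18 were higher and 2 lower both at ZT2 and at ZT14, beside 29.9% and 27.3% of all genes. At ZT14, 10 were higher and 3 lower than at ZT2 in both treatments, beside 39.4% and 35.3%. The medians were 0.12 with vancomycin at ZT2, -0.00 at ZT14, 0.10 between times in saline and 0.13 in vancomycin, the last 2 being about the size of the shift that median centring makes. No gene measured on both arrays of a comparison was 2-fold apart. Aqp6, a channel of intracellular vesicles in type A cells, was higher with vancomycin by 0.71 at ZT2 and 0.42 at ZT14. Slc4a8, the sodium-driven exchanger that works with pendrin, was at 0.48 with vancomycin at ZT14. Atp4a, the gastric type of proton-potassium pump, was 0.95 higher at ZT14 in vancomycin. Against an array not well above background there, Atp12a, the other proton-potassium pump, was brighter with vancomycin at ZT2 by a log2 difference of at least 1.43. Slc26a7, a chloride-bicarbonate exchanger, was brighter with vancomycin at ZT14 by at least 1.39, the dim array being saline ZT14. Between times in saline, 1 gene of the list was 2-fold or more lower at ZT14 by such a bound, and 0 were higher. Atp12a and Slc26a7 were singled out after their values were seen, and no share of all genes past such bounds was taken.

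Genes of proximal bicarbonate transport and ammonia formation, upstream of the collecting duct, were a list of 13, all above background on all arrays. None of the 13 was 2-fold apart in any of the 4 comparisons. Slc38a3, the glutamine transporter that feeds ammonia formation, was higher with vancomycin by 0.54 at ZT2 and 0.83 at ZT14. Slc9a2, a sodium-proton exchanger, was at -0.68 between times in vancomycin.

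Principal cells, which share the collecting duct with intercalated cells and move salt and water, were a list of 13. With vancomycin, 6 of the 12 above background on all arrays were higher at both times and 0 lower, beside the same 29.9% and 27.3% of all genes. Their median difference was 0.18 at ZT2 and reached 0.29 at ZT14, where 1 gene was 2-fold higher. That gene was Aqp4, the basolateral water channel, at 0.78 and 1.33. Avpr2, the vasopressin V2 receptor, was 0.95 higher at ZT14 in vancomycin. In the limma fit 0 genes of each of these lists passed an adjusted p of 0.05 in either direction, for treatment or for time.

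**Figure D4:**
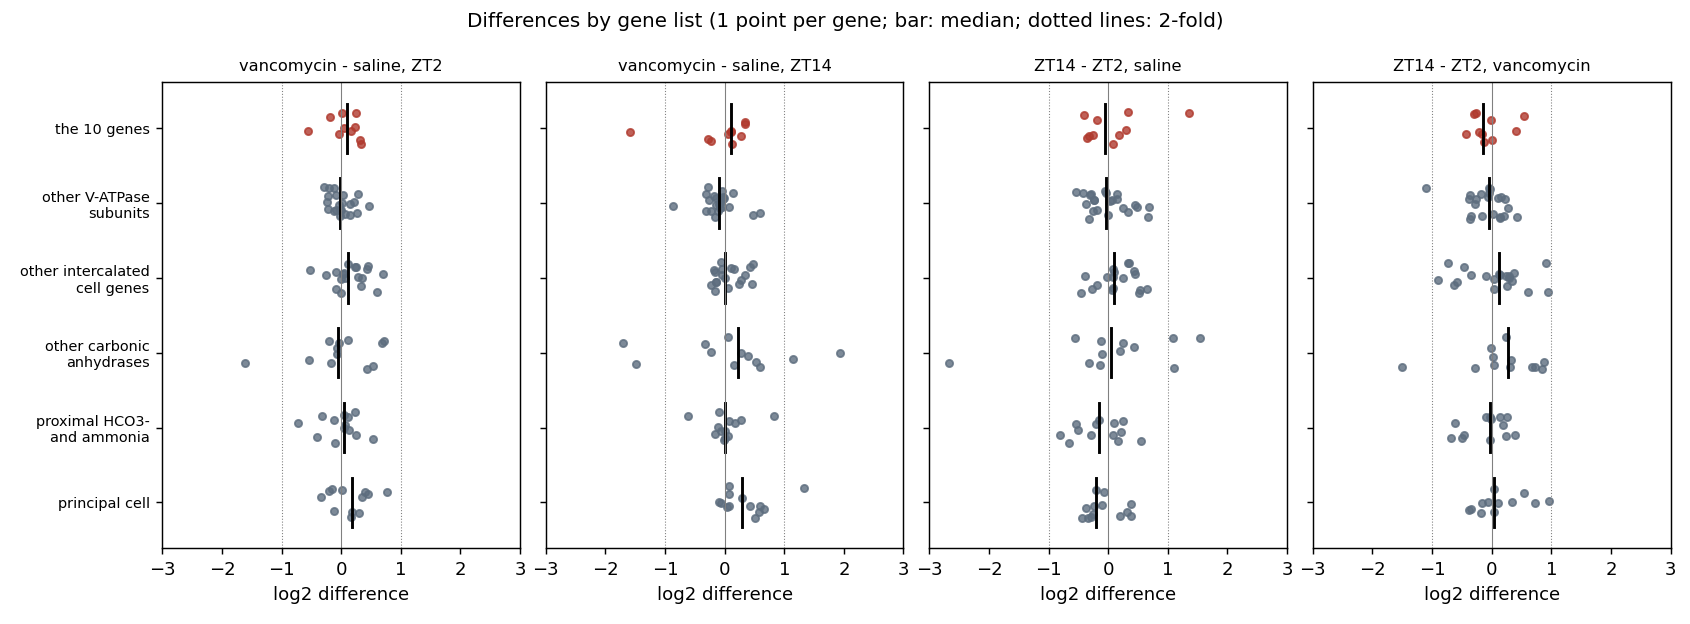
Differences of each gene in the 10 genes and in the lists set beside them, log2 units, for the 4 comparisons, with 1 point per gene measured on both arrays. The members' median is 0.10 and 0.11 with vancomycin and -0.06 and -0.14 between times, and bars mark the median of each list. The carbonic anhydrases other than Car2 and Car4 reach from -2.68 to 1.94, both values of Car3.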

How the data were processed

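Total RNA of 4 kidney samples was amplified, labelled with Cy3 and hybridised to Agilent 1-colour arrays, per the labels' protocols. The authors deposited the scanner output: per the file headers, each spot has a background-subtracted processed intensity from Feature Extraction 10.7.1.1 (9.5.1.1 per the submitters' processing notes), on a grid annotated to mm9. A second deposited table of intensity values had the same median, 35.2 in every column, and served only as an alternative. Its linear scale and equal distributions were found from the values.

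From the deposited intensity, log2 values were taken, each array was centred on its 75th percentile, and flagged and control spots were left out. Probes with at least 50% of spots well above background on 1 or more arrays were kept, and a gene was represented by its brightest probe. Where a gene was dim on 1 of 2 arrays, its difference is a bound against the higher of the lowest signal well above background there and its own signal. Spots well above background made up 60.6% to 64.7% of 59305 per array, 0 were saturated, and the median SD between repeated spots was 0.041 to 0.049 log2 units. The number of arrays, 1 per group, limits the precision.

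Treatment and injection time were fitted with limma 3.58.1 (R 4.3.3), Benjamini-Hochberg adjusted over 24638 genes, with a threshold of 0.05. SE values are moderated. The code was tested on simulated data. The 10 genes and the 12 lists beside them were chosen with earlier results of these data known. From each list the text names genes 2-fold apart in the same direction in both parallel comparisons and the largest difference in each comparison. A few genes that this rule names are not reported here. For the nephron segment, endothelial, erythroid, adrenal and fat lists, medians and levels stand in their place. All 10 members matched a RefSeq table of GRCm38.p6 by accession. No genome or annotation of mm9 was used, so exons and untranslated regions of probes are not given. Alternatives covered background correction, scaling, probe choice, filters and the terms of the fit.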

Additional observations from a re-analysis of the deposited data

Results flagged for a closer look

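Some genes moved in opposite directions under the same contrast, and with 1 array per group none of these differences could be tested. Atp6v1b1 was 1.36 higher at ZT14 in saline and -0.27 in vancomycin, a difference of -1.63. Car2 had -0.18 with vancomycin at ZT2 and 0.28 at ZT14, a difference of 0.46. Car4 had -0.25 between times in saline and 0.40 in vancomycin, a difference of 0.66. Rhbg had 0.24 with vancomycin at ZT2 and -0.23 at ZT14, and 0.33 and -0.13 between times in saline and vancomycin, a difference of -0.46 either way. Among genes outside the 10, Car3 had -1.62 with vancomycin at ZT2 and 1.94 at ZT14, a difference of 3.56. Cyp21a1, an enzyme of adrenal steroid synthesis, had 1.15 between times in saline and -2.86 in vancomycin, a difference of -4.01. Adrenal genes had mean levels of -5.35 in saline ZT2, -1.27 in vancomycin ZT2, -5.24 in saline ZT14 and -3.37 in vancomycin ZT14. Of the 10 measured, 5 were above background on neither saline array, so the saline means include values at the floor. The part of adrenal tissue in the Cyp21a1 value was not tested.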

How the results depend on the processing

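The members' counts past 2-fold were the same under the alternatives run, except that normexp background correction left 0 in place of 1 between times in saline, where Atp6v1b1 then had 0.97. Their median between times in saline, -0.06, was -0.11 with normexp, -0.16 with median centring, -0.10 with quantile normalization and -0.10 in the authors' deposited table. In vancomycin it moved from -0.14 to -0.26 with median centring. Over both treatments, ZT14 minus ZT2 changed sign for Atp6v1g3 (0.09 to -0.023 with normexp and -0.025 with median centring), for Car4 (0.08 to -0.036 with median centring) and for Rhbg (0.10 to -0.0090 with median centring). The number of all genes called by limma for time, 0 as fitted, was 2945 with normexp, 1636 with genes above background on all arrays only, 1332 without the treatment term and 3396 where the prior was robust and followed intensity. It was 0 for treatment in each of these settings that has that term. Members called stayed 0 for both terms, with a smallest adjusted p over the settings of limma of 0.069. The cause of these shifts was not tested. The fit takes treatment within slide, since injection time is the slide, and without that term limma again called 0 genes for treatment. The labels give no replicate numbers to pair by, and 1 array per group leaves no replicate to leave out. The number of arrays, and for Atp6v1b1 and Atp6v1g3 a signal below the 75th percentile of its array, limit what can be read.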
